A study of Sus scrofa with 20 samples.

Results

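Skin of the pig sole and snout was compared with skin of the flank and the upper foot. The aim was to find the genes on which sole and snout stood on the same side of both other sites. Sole and snout are called hairless here, and flank and upper foot haired. These are names for the pairs, since the snout libraries held inner root sheath and hair shaft transcripts well above the sole, as given below. The comparison used all 20 libraries of the series, 10 of sole and snout against 10 of flank and upper foot. Skin punches of 4 mm came from wild-type female Yorkshire pigs, with 1 punch of each of the 4 sites in each of 5 pigs aged 4, 5, 6, 7 and 8 months. They were kept in RNAlater and made into stranded mRNA libraries. The labels call the sole side of the foot volar and the upper side dorsal, and no pig was treated. Library numbers fall into 2 ranges. The first set is the 12 libraries of the pigs aged 4, 7 and 8 months, whose sites were taken from the labels. The second set is the 8 libraries of the pigs aged 5 and 6 months, which were grouped by expression match and not by label, because their labels go against their expression.

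Skin of the pig's sole and of the flat front of its snout carries a thick cornified layer and bears friction. In the epidermis, keratinocytes leaving the basal layer switch to the keratin pair KRT1 and KRT10, are held together by desmosomes, and die into flattened envelopes that transglutaminases cross-link. Haired skin adds follicles, whose hair shaft and inner root sheath have keratins of their own, and the sebaceous and sweat glands tied to them. A punch holds all of these cells and the dermis, so fewer cells of a type and less RNA per cell cannot be told apart in any result here.

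Depth ran from 34077861 to 66906489 counts per library. In the sole libraries of the first set 34.9% to 39.9% of the counts fell on the 20 most abundant genes, and in its other 9 libraries 17.1% to 27%. Each second-set library was placed at the first-set site it resembled most over the 2000 most variable genes. The libraries labelled flank were placed at the sole, those labelled volar at the snout, those labelled dorsal at the flank and those labelled snout at the upper foot. The same 8 placements were reached with the 14 tested skeletal muscle genes left out, with the 183 genes that follow them left out, and with all 626 genes described below left out. Correlations with the placed site were 0.718 to 0.841 in that last case. No test was run on the placed libraries, and statements about them describe values that helped to place them.

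In the first set, 626 of 15302 genes tested (4.09%) passed all 4 comparisons in 1 direction. These are called shared here. The 4 comparisons were sole with flank, sole with upper foot, snout with flank and snout with upper foot, each by edgeR's quasi-likelihood test at a Benjamini-Hochberg adjusted p under 0.05. Of the shared genes 410 (2.68% of those tested) were higher in sole and snout, and 216 (1.41%) were lower. The 4 comparisons use the same 12 libraries, so they are not independent of each other. By itself the mean of sole and snout differed from the mean of the haired sites for 4892 genes (32%). Sole alone differed from flank for 5032 genes (32.9%) and from upper foot for 3694 (24.1%), while snout differed from them for 2024 (13.2%) and 1212 (7.92%). Between flank and upper foot 20 genes (0.131%) differed.

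By fitted values, which depend on the prior count where a site has no counts, 176 of the 216 lower genes differed at least 2-fold in all 4 comparisons and 45 at least 8-fold. Of the 410 higher genes 174 and 26 did so. The 6 libraries of sole and snout lay apart from the 6 haired ones for 1851 genes tested (12.1%). They did so for 408 of the 410 and 209 of the 216, where 7.24% and 4.86% of all genes tested lay apart in those directions.

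KRT3, a type II keratin gene best known from the cornea, had the largest difference among the shared genes that were higher. All levels here are CPM, counts scaled to the effective size of each library, for the pigs aged 4, 7 and 8 months in that order. KRT3 was at 4599, 10563 and 21743 CPM in the sole and 30096, 22443 and 28043 CPM in the snout. In the flank it was at 1.39, 4.86 and 2.81 CPM and in the upper foot at 2.95, 4.53 and 43.7 CPM, so that the lowest of the hairless libraries was far above the highest haired one, the upper foot of the 8-month pig. Its mean difference was 11.32 ± 0.98 on the log2 scale, and the largest of its 4 adjusted p from edgeR was 0.00128. Values after ± are approximate standard errors, the absolute log2 difference divided by the square root of edgeR's F statistic. Where a site has next to no counts they depend on the prior count. KRT3 did not pass between sole and snout (-1.12 ± 0.91, adjusted p = 0.496 in edgeR).

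A2ML1, a protease inhibitor gene of the granular epidermis related to alpha-2-macroglobulin, followed the same order in every pig. It stood at 2204, 777 and 646 CPM in the sole and 329, 209.8 and 220.2 CPM in the snout, against 0.984 to 4.78 CPM in the 6 haired libraries. The groups did not overlap, and the mean log2 difference was 7.95 ± 0.45 (largest adjusted p = 0.0002, edgeR). Sole levels were also above snout levels, by 2.26 ± 0.49 (adjusted p = 0.0138, edgeR).

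S100A8, whose product pairs with S100A9 in the alarmin calprotectin, showed a wider gap between the hairless sites. It was at 3263, 3789.5 and 2365 CPM in the sole and 53.1, 187 and 34.6 CPM in the snout. Flank libraries held 0.647, 1.88 and 2.63 CPM and upper foot libraries 2.05, 10.2 and 3.67 CPM. Every sole library was above every snout library, and every snout library above every haired one. The mean difference was 7.47 ± 0.67, the sole was 5.10 ± 0.84 above the snout, and the largest adjusted p of the 4 comparisons was 0.0119 (edgeR). The S100A8 call was lost without the upper foot library of the 8-month pig (adjusted p = 0.055).

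Both matrix genes among the markers belong to the thrombospondin family and are known from tendon and cartilage. COMP was at 263, 59.2 and 30.1 CPM in the sole and 65.2, 69.3 and 60.02 CPM in the snout, against 0.185, 0.241 and 0.3997 CPM in the flank and 2.38, 2.04 and 4.32 CPM in the upper foot. Sole levels thus ran from highest to lowest over the range that the 3 snout libraries held narrowly, and none reached the haired level. THBS4 was at 2543, 1029 and 1382 CPM in the sole, 1098, 635 and 579 CPM in the snout, 12.8, 6.42 and 7.103 CPM in the flank and 66.4, 20.3 and 32.3 CPM in the upper foot, again with no overlap. Mean log2 differences were 6.60 ± 0.58 for COMP (largest adjusted p = 0.00472, edgeR) and 5.93 ± 0.42 for THBS4 (0.00122), and neither passed between sole and snout.

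KRT71, the inner root sheath keratin gene given as a marker of the haired sites, was not shared. Its levels were 0.0251, 0.156 and 0.0767 CPM in the sole and 114, 326 and 353 CPM in the snout, against 192, 2435 and 1195 CPM in the flank and 2071, 2034 and 5036 CPM in the upper foot. Snout skin thus held KRT71 at levels that overlapped the flank library of the 4-month pig, and the comparison of snout with flank did not pass (-2.27 ± 0.77, adjusted p = 0.0817, edgeR). Between sole and snout KRT71 differed by -11.57 ± 1.24 (adjusted p = 0.000402, edgeR).

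**Figure D1:**
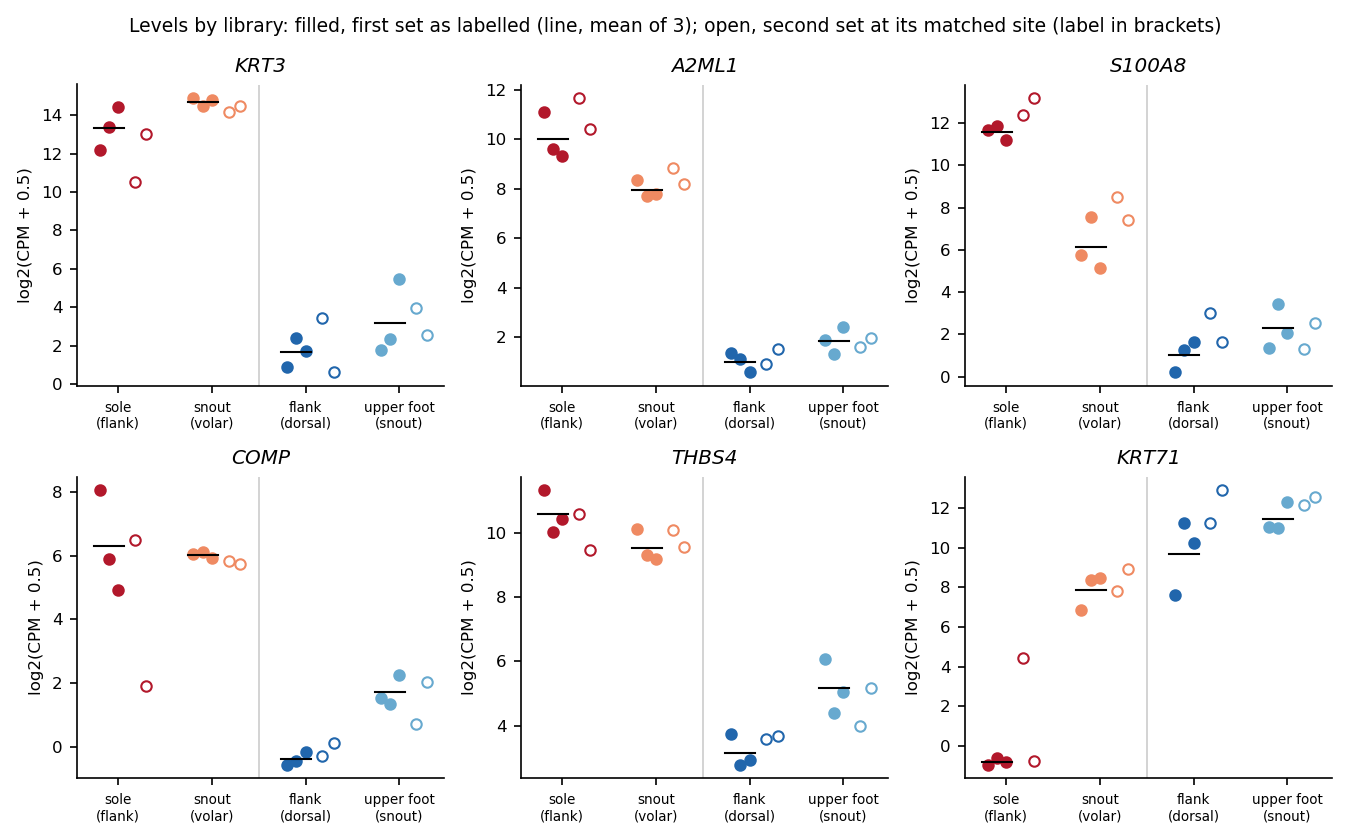
Level of the 6 marker genes as log2(CPM + 0.5), 1 point per library; filled points are the first set at the labelled site with the mean of 3 as a line, open points the second set at the matched site with its label in brackets. For KRT3, A2ML1, S100A8, COMP and THBS4 the first-set points of sole and snout lie above all points of flank and upper foot, while KRT71 in the snout overlaps the flank.

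The other 7 genes with the largest shared increase came from several classes. S100A12, an alarmin gene next to S100A8, was at 4357, 5318 and 3863 CPM in the sole, 142, 361 and 71.6 CPM in the snout and 2.29 to 21.02 CPM in the haired sites. KRT78, a keratin gene of differentiating keratinocytes, was at 2019, 2114 and 1709 CPM, 108, 104 and 221 CPM and 1.22 to 18.4 CPM in the same order. Sole was above snout for both (4.56 ± 0.66 and 3.75 ± 0.49 on the log2 scale, adjusted p = 0.00195 and 0.00118, edgeR). C6orf15 went the other way, with 126, 91.9 and 66.1 CPM in the sole and 503, 551 and 779 CPM in the snout, against 3.12 to 8.79 CPM in the haired sites (-2.69 ± 0.34, adjusted p = 0.00096). ZBED2, a transcription factor gene of keratinocytes, was at 98.5 to 117 CPM in the sole, 26.7 to 64.2 CPM in the snout and 0.554 to 2.99 CPM in the haired sites.

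Smaller levels were seen for the remaining 3. CCK, which encodes the peptide hormone cholecystokinin, was at 15.9, 2.06 and 3.01 CPM in the sole and 19.05, 15.6 and 18.7 CPM in the snout, and at 0.0693 to 0.773 CPM in the haired sites. MGAT4C, a glycosyltransferase gene of N-glycan branching, reached 14.96 to 22.2 CPM and 4.22 to 8.700 CPM against 0.0602 to 0.853 CPM. C8orf74 reached 47.5 to 59.8 CPM and 32.2 to 37.4 CPM against 0.241 to 3.295 CPM. Hairless and haired libraries did not overlap for any of these genes, and the largest adjusted p of the 4 comparisons was 0.00476 for CCK, 0.00125 for MGAT4C and 0.00187 for C8orf74 (edgeR).

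Suprabasal keratins did not move as a group. Of 7 tested, KRT10 and KRT78 were shared and higher, KRT2 and KRT77 shared and lower, and KRT1 passed all 4 comparisons with the hairless sites on opposite sides. The contrast of the 2 site means, called the mean contrast here, gave 3 higher and 3 lower, where 17.6% and 14.4% of all genes tested were called. Their median log2 difference was -0.25, against -0.02 over all genes tested. For every list below the shares of all genes tested are the same, with 2.68% shared and higher and 1.41% shared and lower. KRT10, the type I keratin of the suprabasal layers, was at 54620, 52850 and 56938 CPM in the sole, 9689, 7942 and 13334 CPM in the snout, 2342, 2454 and 2318 CPM in the flank and 3912, 3089 and 6030.5 CPM in the upper foot. No hairless library overlapped a haired one, and the mean difference was 2.90 ± 0.19 (largest adjusted p = 0.0125, edgeR). The KRT10 call was lost without the upper foot library of the 4-month pig (adjusted p = 0.0533) or of the 7-month pig (0.0512).

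KRT1 encodes the partner of KRT10, yet in the snout it lay below the haired sites. It stood at 203110, 222780 and 179460 CPM in the sole and 3368, 3732 and 4783 CPM in the snout, against 12332, 10100 and 6848 CPM in the flank and 13018, 12524 and 15827 CPM in the upper foot. All 3 sole libraries were above, and all 3 snout libraries below, every haired library. Sole was higher than flank by 4.37 ± 0.27, snout lower than flank at -1.30 ± 0.24, and the largest of the 4 adjusted p was 0.00546 (edgeR). KRT24, a type I keratin gene of mucosal epithelia, was at 17182, 9662 and 12308 CPM in the snout and under 1 CPM in each library of the other sites, so its mean difference of 8.32 ± 0.64 came from the snout.

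Both lower members are type II keratin genes. KRT2, of the upper spinous and granular layers, was at 51.98, 498 and 522 CPM in the sole, 8.29, 8.14 and 2.42 CPM in the snout, 1224, 5776 and 1018 CPM in the flank and 4339, 2912 and 4001 CPM in the upper foot. KRT77, known from the sweat duct, was at 1.01, 5.29 and 13.00 CPM, 0.463, 1.11 and 0.823 CPM, 210.0, 109 and 98.3 CPM and 58.7, 68.8 and 72.3 CPM in that order. Snout was below sole and sole below the haired sites, without overlap of hairless and haired libraries. Mean differences were -6.05 ± 0.73 for KRT2 (largest adjusted p = 0.0301, edgeR) and -5.38 ± 0.55 for KRT77 (0.00693). The KRT2 call was lost without the flank library of the 7-month pig (adjusted p = 0.134), the sole library of the 7-month (0.0646) or 8-month pig (0.0524), or the upper foot library of the 4-month pig (0.0542).

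**Figure D2:**
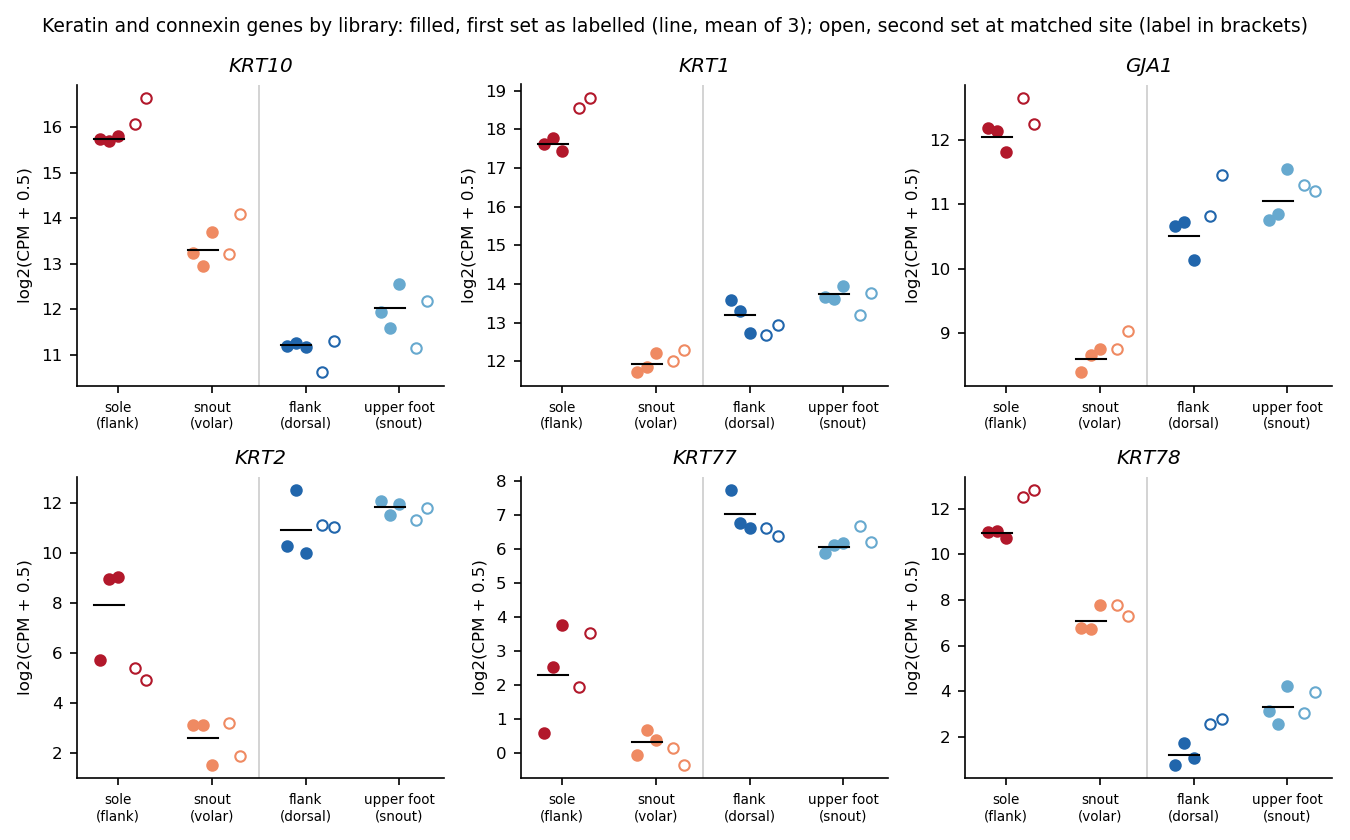
Levels of 5 suprabasal keratin genes and of GJA1 as log2(CPM + 0.5), 1 point per library, filled for the first set (line, mean of 3) and open for the second set at its matched site. KRT10 and KRT78 are above the haired sites in both sole and snout, KRT2 and KRT77 below them in both, and KRT1 and GJA1 are above in the sole and below in the snout.

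Cornified envelope genes were mostly higher in the hairless sites on the mean contrast. Of 18 tested, 5 were shared and higher and 0 shared and lower, and the mean contrast called 15 higher and 1 lower (median 1.61). Of all genes tested 2.68% and 1.41% were so shared, and 17.6% and 14.4% so called. TGM5 and TGM3 encode transglutaminases that cross-link the envelope. TGM5 was at 450.4, 411 and 305 CPM in the sole and 282, 172 and 232 CPM in the snout, against 17.5 to 64.9 CPM in the haired sites, and TGM3 at 2152, 1866 and 1350.0 and 1029.9, 1008 and 1029 CPM against 278 to 499 CPM. The other members were CNFN (cornifelin; 3.03 ± 0.28), SBSN (suprabasin; 1.50 ± 0.15) and PPL (periplakin; 0.83 ± 0.11), with largest adjusted p of 0.00766, 0.00542 and 0.0291 (edgeR). Sole and snout libraries lay above all haired ones for TGM5, TGM3, CNFN and SBSN. Members called on the mean contrast but not shared included CASP14, a protease of terminal differentiation, at a mean of 386 CPM in the sole, 32.2 in the snout, 18.05 in the flank and 30.4 in the upper foot. Snout and upper foot did not pass there (0.10 ± 0.51, adjusted p = 0.941, edgeR).

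Several protease inhibitor and alarmin genes were shared. Of 10 inhibitor genes 4 were shared and higher and none shared and lower, with 7 higher and 2 lower on the mean contrast. Besides A2ML1 they were SERPINB12, SERPINB5 and SPINK5, the last of which encodes the inhibitor of epidermal kallikreins LEKTI. SERPINB12 was at 3383, 3649.6 and 1872 CPM in the sole, 544, 427 and 603 CPM in the snout and 78.6 to 193 CPM in the haired sites. SPINK5 was at 2351, 3461 and 2029.7 CPM and 2896, 1989.7 and 2657 CPM, with no difference called between the hairless sites (0.06 ± 0.30, adjusted p = 0.938, edgeR), and at 418 to 1018 CPM in the haired ones. SERPINB5 (mean difference 1.51 ± 0.17) lost its call with upper-quartile scaling (adjusted p = 0.0544) and without each of 5 libraries, the 3 snout ones and the upper foot of the 4- and 7-month pigs (adjusted p of up to 0.118). Among 9 alarmin and antimicrobial genes, S100A8, S100A12 and S100A14 were shared and higher and none was shared and lower. The mean contrast called 6 of the 9 higher and 2 lower, IL1A (-1.29 ± 0.30) and SLPI (-1.04 ± 0.32). S100A14 was at 635 to 1230.0 CPM in sole and snout and 137 to 286 CPM in the haired sites (1.97 ± 0.16, largest adjusted p = 0.00246, edgeR). Leukocytes also make S100A8 and S100A12, and the 9 tested leukocyte markers summed to 63.8 to 146 CPM in the sole, 135 to 208 in the snout, 133 to 308 in the flank and 144 to 187 in the upper foot, with 0 higher and 2 lower on the mean contrast. Which cells carried the S100A8 and S100A12 transcripts was not tested.

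Some desmosome genes were shared, with adjusted p close to the threshold. Of 22 desmosome and junction genes 5 were shared and higher (DSP, JUP, PERP, DSG1 and PKP1) and 2 shared and lower, with DSG4 the one described here, and the mean contrast gave 11 higher and 4 lower. DSP, which encodes the plaque protein desmoplakin, was at 23114, 20867 and 20296 CPM in the sole, 14135, 10299 and 11766 CPM in the snout, 5806, 5955 and 4011 CPM in the flank and 7958, 7129 and 7665 CPM in the upper foot. DSG1, the desmoglein of the upper epidermis, was at 9529 to 10793 CPM, 5068 to 6772 CPM and 1746 to 3242 CPM for sole, snout and haired sites. Neither overlapped between hairless and haired libraries of the first set. Mean differences of DSP, JUP, PERP, DSG1 and PKP1 were 1.36 ± 0.13, 1.38 ± 0.14, 1.22 ± 0.13, 1.44 ± 0.15 and 1.34 ± 0.15. The DSP call was lost without each of 10 of the 12 libraries (adjusted p of up to 0.149), those of JUP and PERP without each of 9 (up to 0.163 and 0.133), and that of DSG1 without each of 5 (up to 0.0822), all 3 upper foot libraries among them. PERP also lost its call with the pig as a block (adjusted p = 0.0526) and with median-of-ratios scaling (0.0502), and DSP, JUP and PERP lost theirs with upper-quartile scaling (0.0674, 0.061 and 0.0777). JUP lost it without the 20 most abundant genes as well (0.0508).

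DSG4, the desmoglein of the hair shaft, was at 1.36, 1.46 and 0.422 CPM in the sole, 5.51, 15.6 and 15.3 CPM in the snout and 23.8 to 323 CPM in the haired sites. DSG4 (mean difference -5.20 ± 0.62) lost its call without each of 5 libraries, the 3 of the snout and the flank of the 7- and 8-month pigs (adjusted p of up to 0.0969). GJA1, which encodes connexin 43, was opposed in the hairless sites, at 4654, 4516 and 3606 CPM in the sole and 334, 402 and 429 CPM in the snout against 1119.8 to 3006 CPM in the haired libraries.

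Barrier lipid and glycolysis genes had 1 shared member each. Of all genes tested 2.68% were shared and higher, and 17.6% were higher on the mean contrast. ELOVL1, which elongates the very long fatty acids of barrier lipids, was the shared member of 16 barrier lipid genes, at 53.4 to 95.4 CPM in sole and snout and 29.4 to 38.7 CPM in the haired sites (1.05 ± 0.11, largest adjusted p = 0.00671, edgeR); the mean contrast gave 7 higher and 0 lower. HK1, which encodes a hexokinase of the first step of glycolysis, was shared among 15 glycolysis genes, of which the mean contrast called 11 higher and 0 lower. HK1 was at 322 to 404 CPM in the sole, 199.7 to 252 CPM in the snout and 109.7 to 163 CPM in the haired sites. Its call was lost without each of 5 libraries, the 3 of the upper foot and the snout of the 4- and 8-month pigs (adjusted p of up to 0.114). FAR2, a fatty alcohol enzyme counted with the sebaceous genes, was shared and higher (2.29 ± 0.26, largest adjusted p = 0.00241, edgeR), at 8.27 to 20.1 CPM against 1.34 to 3.12 CPM.

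In the matrix, 2 of 19 tendon and cartilage genes, THBS4 and COMP, were shared, and the mean contrast called 9 higher and 3 lower. None of 17 fibrillar and dermal collagen genes was shared, where 4.09% of all genes tested were. The mean contrast called 0 of them higher and 6 lower (median -0.75), against 17.6% and 14.4% of all genes tested. COL3A1, which encodes the main chain of collagen III, was at 20952, 6802 and 10306 CPM in the sole, 15269, 12956 and 9779.6 CPM in the snout, 59369, 47759 and 65201 CPM in the flank and 38090, 21250 and 15245 CPM in the upper foot. The lowest upper foot library was at the level of the snout. Neither sole nor snout passed with upper foot (-0.94 ± 0.43 and -0.95 ± 0.43, adjusted p = 0.134 and 0.217, edgeR). COL6A6, a collagen VI chain gene outside that list, was shared and lower, at 0.804, 0.886 and 3.14 CPM in the sole, 5.38, 12.1 and 1.801 CPM in the snout and 31.5 to 119.6 CPM in the haired sites (-4.48 ± 0.58). It lost its call without the snout library (adjusted p = 0.0674) or the upper foot library (0.0636) of the 4-month pig.

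Among the shared genes that were lower, several had next to no counts in hairless skin. TDO2, which encodes the first enzyme of tryptophan breakdown to kynurenine, had 0 counts in all 6 libraries of sole and snout and was at 1.06, 44.5 and 44.8 CPM in the flank and 29.96, 12.01 and 20.4 CPM in the upper foot. With 3 counts over the 6 libraries as the floor, TDO2 was at least 2740-fold below the haired mean of 25.46 CPM. The bound is smaller against the flank library at 1.06 CPM. TDO2 passed with a largest adjusted p of 0.0218 (edgeR), and the call was lost with the pig as a block and without 4 single libraries, the snout of the 4-month pig (0.0503) and each upper foot library (0.0514 to 0.0626). CPHL1, a relative of the copper protein ceruloplasmin, had 12 counts in the 6 hairless libraries and 30.4, 827 and 1666 CPM in the flank and 762, 127 and 1068 CPM in the upper foot. SULT1C4, a sulfotransferase gene, had 1 count in the 6, against 1.22 to 35.6 CPM in the haired sites. FIBCD1, which encodes a receptor for chitin, had 4 counts in the 6, against 3.67 to 18.4 CPM.

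Enzyme and transporter genes made up 4 of the other 8 with the largest shared decrease. CHIA, an acidic chitinase gene, was at 0.478, 1.303 and 0.805 CPM in the sole and 0.766, 2.101 and 1.89 CPM in the snout, 2.68, 282 and 258 CPM in the flank and 200.1, 88.2 and 189 CPM in the upper foot. GLYATL2, which joins fatty acids to glycine, was at 0.0575 to 0.3201 CPM in the hairless sites and 1.39, 69.6 and 46.9 CPM in the flank and 59.1, 23.5 and 81.2 CPM in the upper foot. For both the lowest haired library was the flank of the 4-month pig, close to the hairless level. ABCC11, a transporter gene of apocrine glands, was at 0.176 to 1.53 CPM and 2.26 to 38.1 CPM, and TMPRSS11F, a membrane serine protease gene, at 0.352 to 3.01 CPM and 39.3 to 123 CPM. Mean differences were -7.17 ± 0.96 for CHIA, -8.35 ± 0.94 for GLYATL2, -4.87 ± 0.70 for ABCC11 and -5.35 ± 0.52 for TMPRSS11F. CHIA lost its call without the snout library of the 4-month pig (adjusted p = 0.0513), and ABCC11 lost it without each of 6 libraries, the 3 of the snout, the upper foot of the 4- and 8-month pigs and the flank of the 8-month pig (up to 0.0764). With limma-voom in place of edgeR, CPHL1, TDO2, SULT1C4, GLYATL2, CHIA and ABCC11 all lost their shared call, with a largest adjusted p of 0.182, 0.133, 0.0847, 0.143, 0.182 and 0.145 in that order.

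Levels of these genes varied among the haired libraries. In the flank of the 4-month pig TDO2 was at 1.06 CPM, SULT1C4 at 1.22, GLYATL2 at 1.39, ABCC11 at 2.26, CHIA at 2.68 and CPHL1 at 30.4, the lowest of the 6 haired libraries for each of the 6 genes. TMPRSS11F and FIBCD1 did not follow them and were at 123 and 13.6 CPM in that library. The 18 sebaceous gland genes, which have the enzymes of sebum lipids among them, summed to 1283 to 13617 CPM in the 3 flank libraries and 1376 to 3423 CPM in the upper foot, against 1421 to 1941 CPM in the sole and 907 to 1905 CPM in the snout. Of them 8 were lower and 3 higher on the mean contrast. The part of gland content in these decreases was not tested.

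Most hair genes were lower on the mean contrast, which averages sole and snout, and 1 of them was shared. Among all genes tested 14.4% were lower on the mean contrast and 1.41% were shared and lower. Of 10 hair shaft genes 9 were lower on the mean contrast and 1, KRTAP11-1, was shared. All 9 inner root sheath genes were lower on the mean contrast and 0 were shared. The hair shaft genes summed to 0.863 to 5.45 CPM in the sole and 47.5 to 167 CPM in the snout, against 159.8 to 1658 CPM in the flank and 803 to 2910 CPM in the upper foot. The inner root sheath genes summed to 2.99 to 11.9 CPM in the sole, 311 to 980 in the snout, 432 to 6915 in the flank and 5446 to 14167 in the upper foot. Snout thus overlapped flank in both sums, and sole did not. KRTAP11-1, a hair keratin-associated protein gene, was at 0.0251, 0.182 and 0 CPM in the sole, 7.92, 33.7 and 28.2 CPM in the snout and 61.96 to 1249 CPM in the haired sites. Its call was lost without each of 7 libraries (adjusted p of up to 0.101), which were the 3 of the snout and the flank and upper foot of the 7- and 8-month pigs. KRT35, KRT25 and KRT71 were likewise lower in the sole but missed the threshold between snout and flank (adjusted p = 0.0684, 0.134 and 0.0817, edgeR). KRT25 missed it between snout and upper foot as well (adjusted p = 0.054, edgeR).

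GPRC5D, a receptor gene of the hair follicle, was shared and lower, at 0.804, 1.02 and 1.21 CPM in the sole, 3.53, 18.3 and 14.1 CPM in the snout, 34.1, 222 and 82.5 CPM in the flank and 84.1, 115 and 356 CPM in the upper foot. It lost its call without 4 libraries, the snout of the 4- and 8-month pigs (adjusted p = 0.0689 and 0.0714), the upper foot of the 8-month pig (0.0566) and the flank of the 7-month pig (0.076). Of 19 follicle regulators 2 were shared and lower, and the mean contrast called 2 higher and 12 lower. LGR5, a marker of follicle stem cells, had 0 counts in the sole, which puts the sole at least 719-fold below the haired mean. In the snout LGR5 was at 1.55, 2.37 and 4.48 CPM, and in the haired sites at 9.82, 12.7 and 9.79 CPM in the flank and 20.8, 26.8 and 19.4 CPM in the upper foot. GATA3, a transcription factor gene of the inner root sheath and epidermis, was at 7.82 to 19.5 CPM in the hairless and 51.8 to 144 CPM in the haired libraries (-2.85 ± 0.29, largest adjusted p = 0.00238, edgeR). KRT15, a keratin gene of basal cells and the follicle bulge, was at 3.62, 5.68 and 13.9 CPM in the sole, 161 to 322 CPM in the snout and 242 to 379 CPM in the haired sites.

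Several signalling and channel genes were shared as well. SCNN1A and SCNN1G encode subunits of the epithelial sodium channel and were the higher shared members of 14 sweat gland and duct genes. These genes went both ways, with 7 higher and 5 lower on the mean contrast and a median of 0.00245. Among the lower ones was KRT7, a keratin gene of glandular epithelium (-2.88 ± 0.68). SCNN1A was at 70.8 to 107 CPM in sole and snout and 8.47 to 25.9 CPM in the haired sites (2.18 ± 0.22), and SCNN1G at 6.94 to 15.1 CPM and 1.68 to 4.098 CPM (1.85 ± 0.21), with largest adjusted p of 0.00293 and 0.0106 (edgeR). FOXC1, a transcription factor gene of sweat glands and follicles, was the lower shared member (-2.10 ± 0.30), and lost its call with the pig as a block, with no count filter and without each of 9 libraries (adjusted p of up to 0.147). AQP5, the water channel of sweat glands, was at 2115, 1457 and 491 CPM in the sole and 40.6, 56.7 and 96.8 CPM in the snout against 2.06 to 18.6 CPM, but snout and upper foot missed the threshold (adjusted p = 0.0712, edgeR). RHCG, an ammonium transporter gene, was at 326 to 648 CPM in the sole and at 3.27 to 20.6 CPM in the other sites.

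The next genes belong to no list and were picked after their values had been seen. DUOXA1 and DUOXA2 encode maturation factors of the dual oxidases, which make hydrogen peroxide, and neighbour each other in the genome. DUOXA1 was at 276, 248 and 185 CPM in the sole, 167, 101 and 142 CPM in the snout and 7.52 to 31.96 CPM in the haired sites, and DUOXA2 at 215 to 380.1, 132 to 239 and 7.04 to 41.6 CPM. NMU, a neuropeptide gene, was at 3.16 to 10.3 CPM in the hairless and 0.0461 to 0.271 CPM in the haired libraries. Mean differences were 3.24 ± 0.22 for DUOXA1, 3.24 ± 0.28 for DUOXA2 and 4.82 ± 0.40 for NMU, with largest adjusted p of 0.00187, 0.00565 and 0.00138 (edgeR).

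Patterning genes were found on both sides. DLX5 and DLX6, neighbouring homeobox genes of the jaw and limb, were shared and higher, DLX5 at 12.04, 14.3 and 11.9 CPM in the sole, 10.1, 4.95 and 4.46 CPM in the snout and 1.06 to 3.68 CPM in the haired sites. Both sat at the threshold (largest adjusted p = 0.0445 and 0.0494, edgeR) and lost their calls without each of 10 (DLX5, up to 0.158) and 11 (DLX6, up to 0.173) of the 12 libraries. DLX6 also lost its call with the pig as a block (adjusted p = 0.0632), with median-of-ratios (0.056) or upper-quartile scaling (0.0661), with no count filter (0.0579) and without the 20 most abundant genes (0.0568). DLX5 lost it with upper-quartile scaling (0.0552) and with limma-voom (0.0555). HOXA2, a homeobox gene, was shared and lower. It had 3 counts in the 6 hairless libraries and was at 0.187 to 0.739 CPM in the haired ones. MITF, which drives the melanocyte program and is also expressed elsewhere, was at 24.3, 22.8 and 21.7 CPM in the sole, 24.9, 20.7 and 22.3 CPM in the snout, 68.3, 50.3 and 57.4 CPM in the flank and 58.3, 56.6 and 70.2 CPM in the upper foot (-1.39 ± 0.10, largest adjusted p = 0.00024, edgeR). It was the 1 shared gene of 5 melanocyte markers, of which DCT was also lower on the mean contrast (-1.29 ± 0.29).

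Markers of other cell types were counted in the same fit. Among all genes tested 4.09% were shared, and the mean contrast called 17.6% higher and 14.4% lower. Of 11 adipocyte genes 8 were lower on the mean contrast and 0 shared, and they summed to 122 to 171 CPM in the sole, 172 to 345 CPM in the snout, 359 to 3545 CPM in the flank and 627 to 874 CPM in the upper foot. LPL, a lipase gene of fat cells, was at 11.03, 6.83 and 16.8 CPM in the sole, 83.3, 41.7 and 70.5 CPM in the snout, 184, 74.5 and 795 CPM in the flank and 165, 116 and 143 CPM in the upper foot, with snout and flank overlapping. The comparison of LPL that did not pass was snout with upper foot (-1.09 ± 0.69, adjusted p = 0.407, edgeR). Of 10 smooth muscle genes 6 were lower and 1 higher on the mean contrast, with 0 shared. MYH11, the smooth muscle myosin gene, was at 20.01 to 90.9 CPM in the hairless and 165 to 740.1 CPM in the haired libraries. Both sole and snout missed the threshold with upper foot for MYH11 (adjusted p = 0.0528 and 0.088, edgeR). The 14 skeletal muscle genes had 2 higher on the mean contrast and 0 shared, and summed to 14.8 to 11043 CPM in the snout and at most 29.7 CPM elsewhere, and the top of the snout range was the library of the 7-month pig. None of 7 endothelial and none of 15 proliferation genes was called on the mean contrast (edgeR), and 0 of either were shared. How far the makeup of the punches takes part in the shared changes was not tested.

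**Figure D3:**
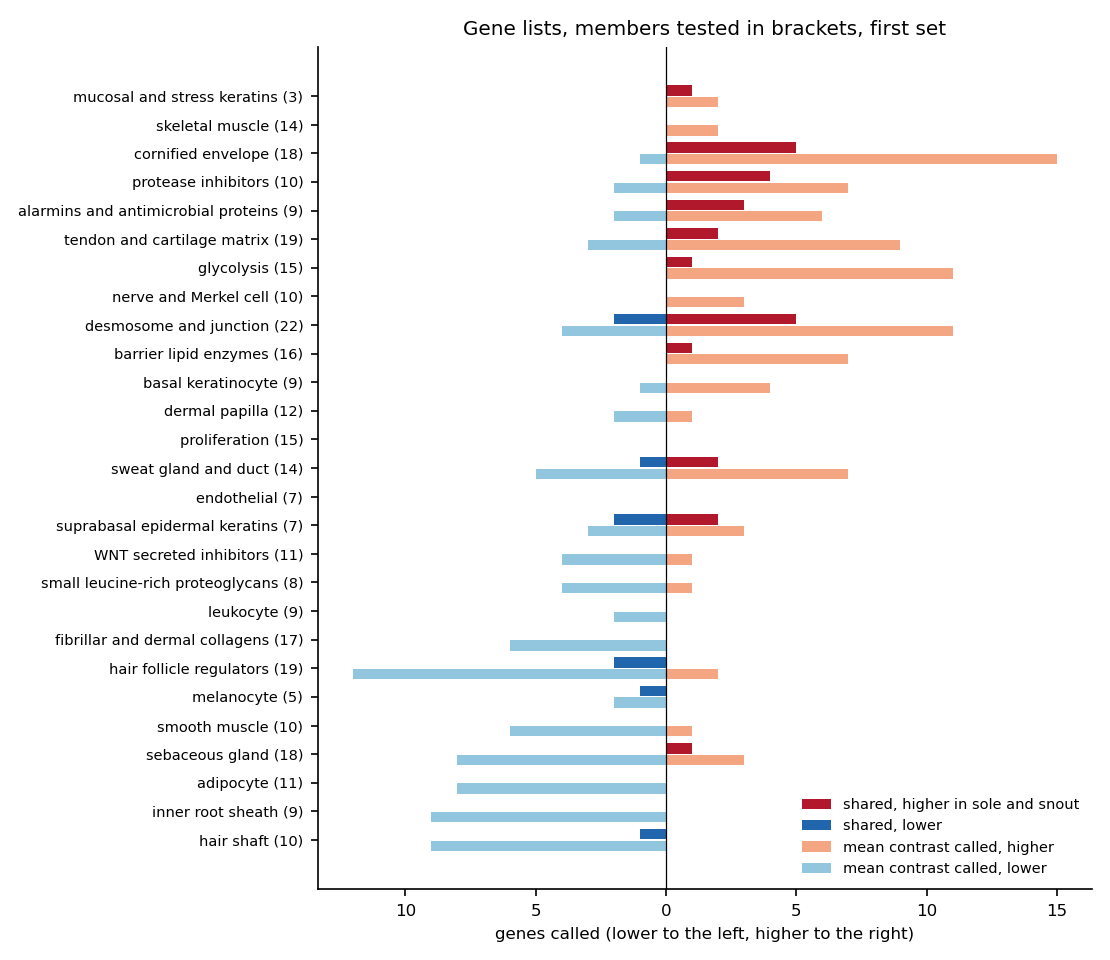
Number of genes called in each of 27 gene lists in the first set, higher in the hairless sites to the right and lower to the left, with the number of members tested in brackets. Dark bars count shared genes and pale bars genes called on the mean contrast; cornified envelope genes have 5 and 15 to the right, and inner root sheath genes 0 and 9 to the left.

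Shared genes often differed in level between the hairless sites. Of the 410 that were higher, 102 were also higher in sole than in snout, 19 were higher in snout, and 289 did not pass. Of the 216 that were lower, 7 were higher in sole, 50 higher in snout and 159 did not pass. Over all genes tested 1768 (11.6%) differed, 873 (5.71%) higher in sole and 895 (5.85%) higher in snout. Flank and upper foot differed for 2 of the 626 shared genes. Genes called against every haired site but in opposite directions were few. Sole was higher and snout lower for 8 genes (0.0523% of those tested), among them KRT1, GJA1, PPIF (a cyclophilin of mitochondria) and HOXC11. The reverse held for 17 genes (0.111%), among them FMO2 (a monooxygenase) and CYP4B1. FMO2 was at a mean of 5.66 CPM in the sole, 492 in the snout, 51.7 in the flank and 53.3 in the upper foot. This grouping was chosen after values had been seen.

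Some shared genes were neighbours in the genome. By RefSeq order in Sscrofa11.1, 42 of 349 placed genes that were higher (12%) had a shared higher gene as the next tested gene on either side, against 5.22% of other genes. Such pairs included S100A8 with S100A12, KLK11 with KLK12 (kallikrein proteases), SERPINB12 with SERPINB5, DUOXA1 with DUOXA2 and DLX5 with DLX6. The other pairs joined genes with unlike names, such as JPT1 with NT5C, FADS6 with FDXR, KRI1 with CDKN2D and RAB25 with LAMTOR2. For genes that were lower it was 7 of 168 (4.17%) against 2.62%. These shares are a description, with no test.

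In the second set, placed by expression, all 410 and all 216 shared genes had the sign of the first set. This follows in part from the placement. Over all 20 libraries the 10 of sole and snout lay apart from the 10 of flank and upper foot for 995 genes (6.5%), among them 334 of the 410 and 177 of the 216, where 3.91% and 2.59% of all genes tested did so in those directions. KRT3 was at 1474 and 8335 CPM in the libraries labelled flank of the 5- and 6-month pigs and 18524 and 22997 CPM in those labelled volar. In the libraries labelled dorsal it was at 10.2 and 1.04 CPM, and in those labelled snout at 15.03 and 5.46 CPM. For A2ML1 the libraries labelled flank and volar held 289.9 to 3244 CPM and the other 4 held 1.39 to 3.38 CPM, and for THBS4 they held 709.6 to 1542 and 11.4 to 35.5 CPM. S100A8 was at 172 to 9283 CPM against 1.94 to 7.58 CPM. COMP overlapped here, since the library labelled flank of the 6-month pig held 3.26 CPM and the library labelled snout of the same pig 3.58 CPM. GLYATL2, ABCC11 and FAR2 overlapped here as well. In the 5-month pig GLYATL2 was at 0.264 CPM in the library labelled dorsal and 0.111 CPM in that labelled snout. The library labelled volar of the 6-month pig held 0.593 CPM of it. ABCC11 was at 1.05 CPM in the library labelled snout of the 5-month pig, against 1.27 and 1.89 CPM in those labelled volar. TDO2 was at 0 in the 4 libraries labelled flank and volar and at 1.29 to 36.02 CPM in the other 4.

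With the labels of the second set taken as they stand, 1 gene of 15302 (0.00654%) separated the 10 libraries from the 10. A fit of all 20 libraries by label found 0 shared genes and 42 on the mean contrast. Results for named genes therefore rest on the first set, and the second is described only.

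**Figure D4:**
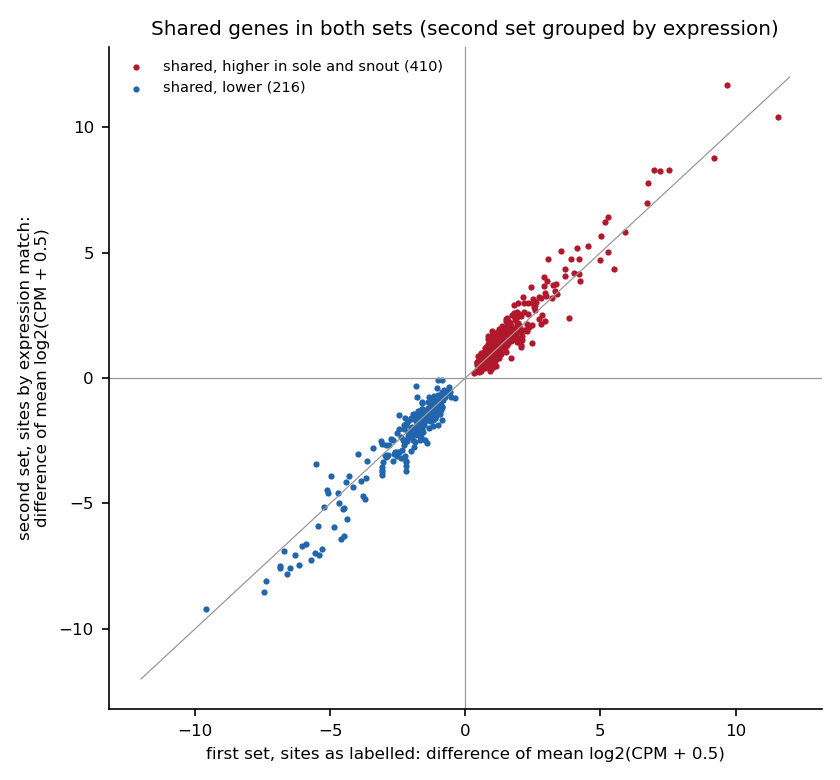
Difference between the hairless and the haired libraries in mean log2(CPM + 0.5) for the 626 shared genes, in the first set with sites as labelled (horizontal axis) and in the second set with sites by expression match (vertical axis); the line marks equal values. All 410 higher and all 216 lower genes have the same sign in both sets, of which the second was placed by such values.

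The number of shared genes depended on single libraries. It was 331, 349 and 359 without the upper foot library of the 7-, 4- and 8-month pig, and 369 and 383 without the snout library of the 4- and 8-month pig, in place of 626. Upper-quartile scaling turned the split of 410 higher and 216 lower to 303 and 253, and moved the median difference of all genes from -0.02 to -0.11. With the pig as a block 879 genes were shared, 603 of them among the 626.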

How the data were processed

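Gene-level estimated counts were deposited for 20 libraries. The submitters' processing notes name Salmon as the tool; version, genome build and annotation were not given in the sources used here. Salmon divides reads among near-identical copies, so levels of close keratin and S100 relatives are uncertain to that extent. Of the values 42.2% were not whole, and all were rounded. Of 19280 identifiers 14821 matched a symbol in the supplied table.

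The first set of 12 libraries was fitted with edgeR 4.0.16 in R 4.3.3 (TMM scaling, filterByExpr with a count minimum of 10, robust quasi-likelihood F test, 8 residual degrees of freedom), with Benjamini-Hochberg adjustment over the 15302 genes tested and a threshold of 0.05. Filtering keeps genes counted at 1 site only. Levels are CPM scaled by TMM over all 20 libraries, so they are not plain shares of the counts. Floors of 3 counts cover counting error only, since the reads carry no molecular identifiers in this table. P-values weigh a site difference against the spread of libraries within a site. With 1 library per pig and site, pig, age, punch and library preparation cannot be told apart in that spread. Deviations from site means of libraries of 1 pig had a median r of 0.22 (-0.01 to 0.43), against -0.13 between pigs, and the sites of 1 pig are paired by the labels. Each site mean is taken over 3 libraries, so a positive r within pigs pulls the r between pigs to negative values. The value between pigs is therefore no separate baseline. The main test had no pig term.

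Members, gene lists and tests were chosen with earlier results of these data known. Named genes were the 12 in each direction with the largest smallest-of-4 log2 fold change among shared genes with a symbol, at least 5 CPM in each site of the higher pair and no overlap, the 6 given markers, and up to 4 shared members per list. A further 19 genes were named after their values were seen, among them KRT1, GJA1, KRT24, AQP5, RHCG, COL3A1, LPL, MYH11, DSG1, DSG4, DUOXA1, DUOXA2, NMU, DLX5, DLX6 and HOXA2, as were PKP1, PPL, CASP14, DCT and the opposed genes. A few genes that these rules name are not reported here. Neighbours were taken from the RefSeq gene order of Sscrofa11.1 by symbol, sorted by start position within each chromosome. Distances between neighbours were not used.

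The alternatives were DESeq2 1.42.0, limma-voom (limma 3.58.1), other scalings, count filters, a minimum fold, the pig as a block, each library or pig left out, and sites as labelled. The test was checked on simulated counts of 15193 genes for the 4 comparisons together. Of 100 genes changed 2-fold it recovered 19 as shared and 63 on the mean contrast, and of 100 changed 4-fold 78 and 93. In these counts 0 shared calls and 5 calls on the mean contrast were false. The number of false shared calls among genes that differ at a single site, or with libraries paired by pig, was not tested.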

Additional observations from a re-analysis of the deposited data

Results flagged for a closer look

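A library stood apart from the other 5 of its kind in 10 of the 132 groups of 6 libraries examined (66 named genes, hairless and haired). Chance gives about 1 in 20 for 6 values drawn from a single normal population. Each group here pools libraries of different sites, and most genes were picked by their values in these libraries, so that rate is no exact reference. Highest values were 43.72 CPM for KRT3 in the upper foot of the 8-month pig (median of the 6 haired libraries 3.741), 740.1 CPM for MYH11 in the flank of the 8-month pig (181.5) and 0.9469 CPM for KRT24 in the flank of the 4-month pig (0.1493). In hairless skin they were 0.1252 CPM for CPHL1 in the snout of the 7-month pig and 0.01596 CPM, or 1 count, for SULT1C4 in the snout of the 4-month pig. Lowest values were 1.386 CPM for GLYATL2 (median 53.01) and 2.679 CPM for CHIA (194.7) in the flank of the 4-month pig. In the flank of the 8-month pig they were 137.2 CPM for S100A14 (257.8), 1533 CPM for PERP (2543) and 1746 CPM for DSG1 (3148). The shared calls of KRT3 and S100A14 were kept without each single library in turn.

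For 21 of the 54 named shared genes the level also differed between sole and snout (edgeR, adjusted p under 0.05). Log2 differences of sole above snout were 5.83 for KRT2, 5.10 for S100A8, 4.56 for S100A12, 3.75 for KRT78, 3.01 for KRT77, 2.50 for SERPINB12, 2.41 for KRT10 and 2.26 for A2ML1. They were 1.84 for CNFN, 1.45 for MGAT4C, 1.34 for DLX6, 1.01 for JUP, 0.86 for PERP, 0.83 for DSP, 0.81 for TGM3 and 0.68 for HK1. Snout was above sole for LGR5 (-10.3), KRTAP11-1 (-8.49), GPRC5D (-3.56), DSG4 (-3.51) and C6orf15 (-2.69). LGR5 has no counts in the sole, so its value depends on the prior count.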

How the results depend on the processing

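The count of shared genes kept its size in scaling by median of ratios (607), upper quartile (556) and limma-voom (658), with other count filters (570 and 627) and without the 20 most abundant genes (593). DESeq2 gave 1029 shared genes, 2730 between sole and snout and 349 between flank and upper foot. limma-voom gave 48 for flank and upper foot. At an absolute log2 fold change of at least 1 there were 350 shared genes, 1783 on the mean contrast and 1104 between sole and snout. Leaving out 1 library or 1 pig gave 143 to 642 shared genes, 2522 to 4741 on the mean contrast, 269 to 2009 between sole and snout and 0 to 42 between flank and upper foot (0 without the 4-month or the 8-month pig, with 1258 and 651 at an unadjusted p under 0.05 in edgeR; DESeq2 was not run on these). Of the 54 named shared genes 41 kept their call in the 8 settings that keep all 12 libraries, 35 in the 12 removals of 1 library and 11 in the 3 removals of a pig. A setting in which a gene was not tested was passed over for that gene. Of the 66 named genes 58 were tested without the 20 most abundant genes, and 65 with at least 1 CPM in 3 libraries. Where a call was lost, the cause was not tested beyond the fewer libraries.

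The 4 sites come from the same pigs. With the pig as a replicate block there were 879 shared genes, 5719 on the mean contrast, 2250 between sole and snout and 32 between flank and upper foot, and 4 of the named genes lost their call (DLX6, FOXC1, PERP and TDO2).

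With sites as labelled, all 20 libraries in 1 edgeR fit gave 0 shared genes, 42 on the mean contrast, 0 between sole and snout and 0 between flank and upper foot (2513, 992 and 1791 at an unadjusted p under 0.05 for the last 3). KRT1 turned to -0.58 and RHCG to -0.26. The second set alone gave 1 shared gene, 2729 on the mean contrast, 1551 between the libraries labelled volar and snout and 7140 between those labelled flank and dorsal. Taken by those labels, 1 gene separated all 20 libraries 10 from 10, against 995 by expression match and 1851 for the 6 and 6 of the first set alone. In the second set by label, genes higher in the first set turned to lower log2 differences, with A2ML1 -0.98, ZBED2 -0.54, S100A8 -2.66, S100A12 -2.18, KRT78 -2.09, MGAT4C -1.73, S100A14 -0.29, ELOVL1 -0.58, TGM5 -0.85, TGM3 -0.99, CNFN -1.13, SBSN -0.24, DSP -0.64, JUP -0.70, PERP -0.54, HK1 -0.48, SERPINB12 -1.77, SERPINB5 -0.45, SPINK5 -0.48, KRT10 -0.95, SCNN1A -0.0877, SCNN1G -0.000613, DLX5 -0.33, DLX6 -1.04, DSG1 -0.53, DUOXA1 -0.0896, AQP5 -3.54, KRT1 -2.92, RHCG -2.89. Genes lower in the first set turned to higher ones, with CPHL1 2.55, SULT1C4 0.22, FIBCD1 1.06, GLYATL2 0.84, TMPRSS11F 0.49, KRTAP11-1 3.87, COL6A6 3.52, GPRC5D 1.78, KRT71 2.57, LGR5 6.00, FOXC1 0.85, COL3A1 0.57, KRT15 4.55, KRT25 2.51, KRT35 4.73, LPL 0.90, MYH11 0.68, DSG4 1.24. Depth limits the genes without counts at a site. Log2 differences printed for such genes, as for LGR5, SULT1C4 and FIBCD1 here, depend on the prior count.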

Other observations

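Further lists had members called on the mean contrast and none shared, where 17.6% of all genes tested were called higher and 14.4% lower. Of 10 nerve and Merkel cell genes 3 were higher and 0 lower. They were KRT20 and ATOH1, markers of Merkel cells, and ISL1, a transcription factor of sensory neurons and Merkel cells. KRT20 was at a mean of 2.05 CPM in the sole, 5.56 in the snout, 0.914 in the flank and 0.702 in the upper foot. The list summed to 124 to 155 CPM in the snout and 43.1 to 66.9 CPM in the sole, with 67.5 to 99.2 CPM in the haired sites, so sole and snout lay on opposite sides of the haired libraries in the sum.

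Of 8 small leucine-rich proteoglycans, which bind collagen fibrils, 4 were lower (OMD, DCN, LUM and OGN) and BGN was higher. BGN, which encodes biglycan, was at a mean of 96.2 CPM in the sole, 141 in the snout, 37.7 in the flank and 54.9 in the upper foot, while DCN, which encodes decorin, was at 837, 1452, 4042 and 1805 CPM in that order. Of 11 secreted WNT inhibitors 4 were lower (SOSTDC1, DKK2, SFRP1 and APCDD1) and DKK3 was higher.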
